A study of Homo sapiens with 4 samples.

Results

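The genes described here encode 9 transcription factors of the airway epithelium: TP63, SOX2, EHF, ELF3, KLF5, GRHL2, FOXA1, FOXA2 and CEBPB. BACH1-bound regions were taken as belonging to a gene when their summit lay in a fixed hg19 window around it. Of the 10246 regions in the Calu3 list 14 did so, and of the 3393 regions in the 16HBE14o- list 11 did so. Binding was mapped by chromatin immunoprecipitation and sequencing (ChIP-seq) with a rabbit antibody against BACH1, in a study that asked whether BACH1 takes part in the regulation of the chloride channel gene CFTR. Calu3 is a human lung adenocarcinoma line and 16HBE14o- a line of human bronchial epithelial cells. Both grew in the same medium (DMEM with serum), and no genotype change or treatment is labelled for either. Each line was sampled in 2 replicates, which the authors joined into 1 list of reproducible peaks, so there is no replicate spread and no test was made between the lines. Nothing labels the replicates as separate cultures. The lists hold no expression values, so the labelled cell types could not be checked against their markers.

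BACH1 is a haem-sensing repressor of antioxidant and iron-handling genes. Its basic leucine zipper joins that of a small MAF protein, and the dimer binds elements with an AP-1-like core extended by a GC dinucleotide. TP63 is the defining factor of airway basal cells, and SOX2 marks the proximal airway lineage. EHF and ELF3 are ETS factors restricted to epithelia, KLF5 is a zinc finger factor of proliferating epithelia, and GRHL2 maintains epithelial junctions. EHF and KLF5 are known as regulators of CFTR in airway cells. FOXA1 and FOXA2 open closed chromatin in endoderm-derived epithelia, and CEBPB is a basic leucine zipper factor induced in inflammation.

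The windows appear to be each gene with 50 kb on either side. Taking the gene to begin and end 50 kb inside the window placed a BACH1 region within 2 kb of the gene start of CEBPB, ELF3, FOXA1 and EHF, in Calu3 in each case and in 16HBE14o- also at CEBPB. The windows are given to 1 kb, and the gene starts so inferred were not checked against an hg19 annotation. Exons and introns were not assigned. Only 1 start was inferred per gene, and positions of regions relative to a gene start use this inferred start. RefSeq's promoter table (GRCh38.p14, 250 bases before to 50 after a gene's start) matched 7 of the 9 genes with 10 promoters. The promoters of 3 of the 4 genes with a region near their inferred start are shown. EHF is left out. It has 2 entries, chr11:34624007-34624306 and chr11:34632316-34632615, neither with a motif match. Whether its inferred start stands for either of them was not determined. CEBPB also has 2 entries; the one printed is that with the match, and the other, chr20:50190333-50190632, has none. They are on another build than the peaks, so no distance between peak and sequence is given. They were read 5′ to 3′ along the gene's strand; a single capital marks the base where transcription starts, and a run of capitals marks the only match to a searched motif.
CEBPB, chr20:50190580-50190879, plus strand: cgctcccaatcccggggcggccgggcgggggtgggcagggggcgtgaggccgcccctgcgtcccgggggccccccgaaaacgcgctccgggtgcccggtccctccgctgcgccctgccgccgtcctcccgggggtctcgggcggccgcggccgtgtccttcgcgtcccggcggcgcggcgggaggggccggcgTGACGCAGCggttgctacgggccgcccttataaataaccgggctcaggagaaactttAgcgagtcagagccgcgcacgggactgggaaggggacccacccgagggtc
ELF3, chr1:202010337-202010636, plus strand: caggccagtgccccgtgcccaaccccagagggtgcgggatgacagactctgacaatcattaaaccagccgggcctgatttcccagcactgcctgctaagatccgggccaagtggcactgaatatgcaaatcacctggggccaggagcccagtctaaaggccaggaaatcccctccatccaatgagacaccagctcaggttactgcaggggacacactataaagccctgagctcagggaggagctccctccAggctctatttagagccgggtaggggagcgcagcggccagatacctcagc
FOXA1, chr14:37595200-37595499, minus strand: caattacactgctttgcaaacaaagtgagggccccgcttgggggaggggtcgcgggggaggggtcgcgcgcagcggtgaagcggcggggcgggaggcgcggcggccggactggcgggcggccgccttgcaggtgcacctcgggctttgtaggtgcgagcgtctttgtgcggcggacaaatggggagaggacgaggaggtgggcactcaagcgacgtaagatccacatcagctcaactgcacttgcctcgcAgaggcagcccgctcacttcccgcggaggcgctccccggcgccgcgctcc

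The 10 promoters were searched on both strands for elements of the kind BACH1 and AP-1 bind, as a description of these letters. The match in the CEBPB promoter was TGACGCAGC, at bases 194 to 202 of the printed sequence, and fits the antioxidant response core TGACNNNGC, which 13.3% of all 35116 RefSeq promoters hold. No member promoter held TGACTCAGC (0.561% of all promoters), the type bound by BACH1 with a small MAF protein, and so none held its longer form with A as a further base (0.154%). None held the AP-1 type TGANTCA (7.71%), which overlaps it. Among 20 other airway factor genes, 14 matched the table with 19 promoters: GRHL3, another Grainyhead factor, held TGACNNNGC, and FOXA3, another forkhead factor, held TGANTCA. These 300-base windows say nothing about the peaks away from gene starts, whose sequence was not analysed here.

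BACH1 regions were present at 5 of the 9 genes in Calu3 (TP63, CEBPB, ELF3, EHF and FOXA1) and at 4 of the 9 in 16HBE14o- (CEBPB, ELF3, TP63 and KLF5). For comparison, of all stretches of 123 kb, the median window length, 27.5% held a Calu3 region and 10.2% held a 16HBE14o- region. ELF3, CEBPB and TP63 had a region in both lines, as did 7.26% of such stretches. GRHL2, FOXA2 and SOX2 had none in either list. The stretches take no account of genes or open chromatin, and the TP63 and GRHL2 windows, at 367 and 277 kb, are longer than the stretches.

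**Figure D1:**
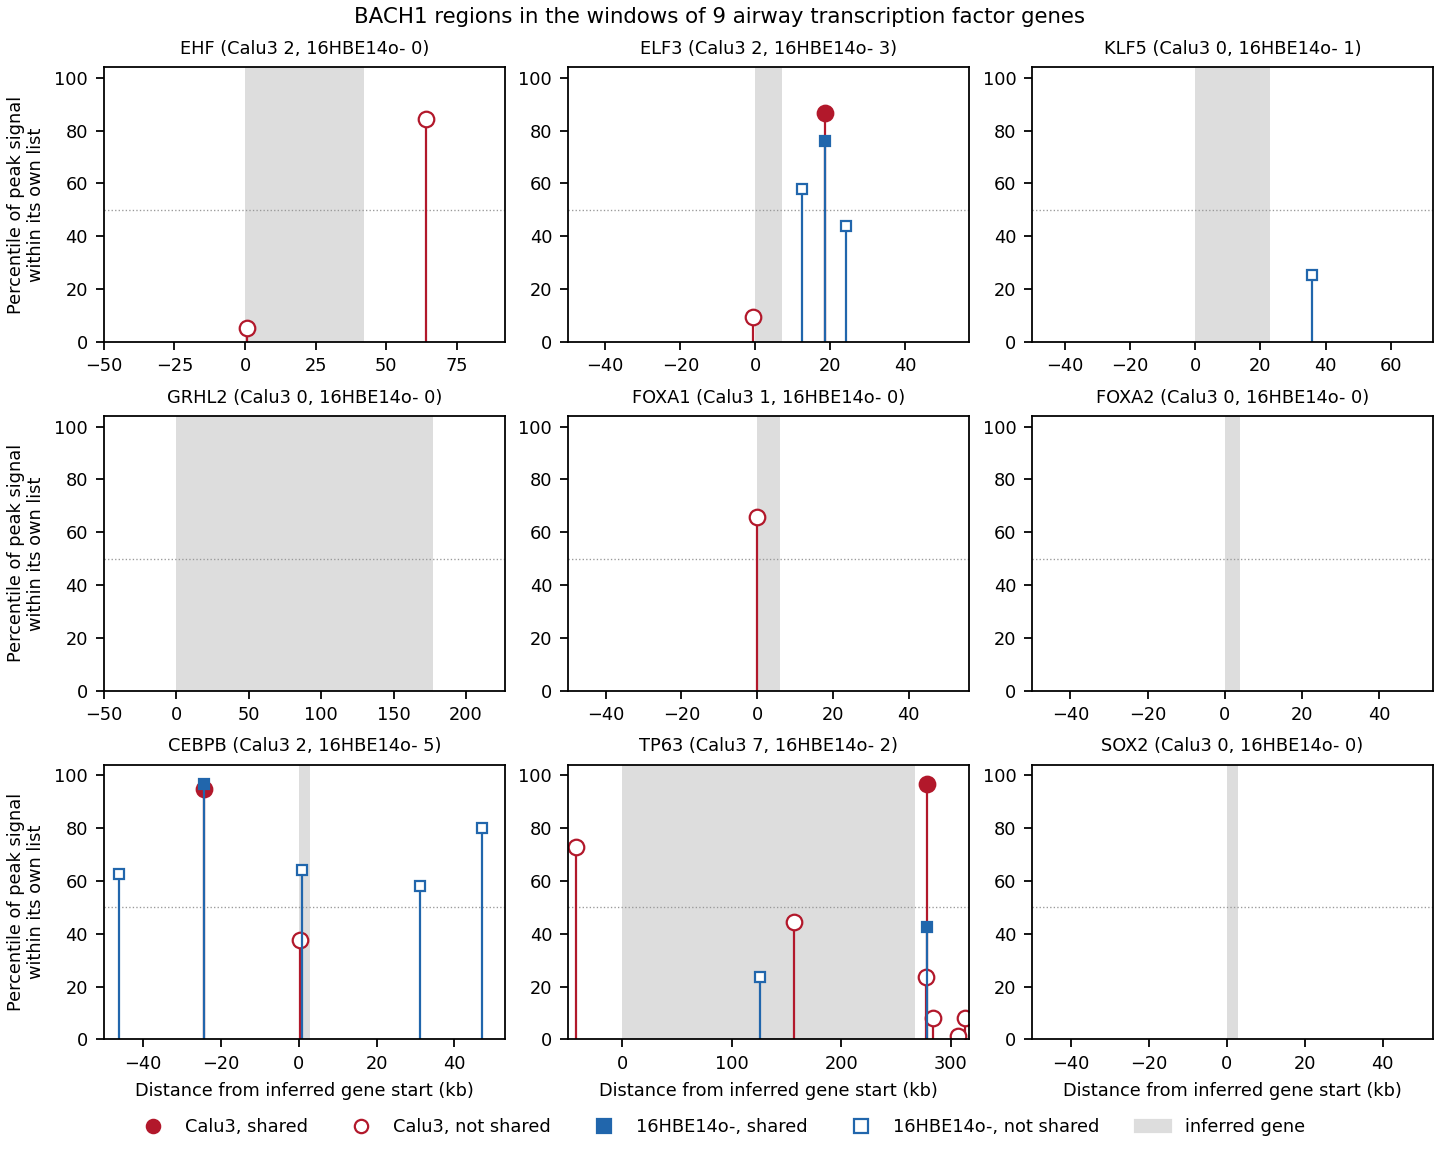
Each panel is the window of 1 gene. The x axis is the distance from the inferred gene start in kb along the gene's strand (for GRHL2 and FOXA2, which have no region, from the lower gene edge), and the y axis is the percentile of each region's signal within its own list. Red circles are Calu3 and blue squares 16HBE14o-, filled where the regions of the lines overlap; grey marks the inferred gene and the dotted line the middle of the list. The filled symbols at ELF3, CEBPB and TP63 are the highest of their colour in each panel, and the Calu3 circles at the starts of ELF3 and EHF lie near the bottom.

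Across the 9 windows, 1.432 Mb in all, Calu3 had 9.78 regions per Mb (95% exact Poisson interval 5.34 to 16.4) and 16HBE14o- 7.68 (3.83 to 13.7). The windows took 0.137% of the Calu3 list (95% exact binomial interval 0.0747 to 0.229) and 0.324% of that of 16HBE14o- (0.162 to 0.579). The whole lists had 3.39 regions per Mb in Calu3 and 1.12 in 16HBE14o-, both below the intervals of the windows. At the densities of the genes' own chromosomes the windows would hold 6.98 Calu3 and 2.48 16HBE14o- regions, values that lie outside the intervals of 7.65 to 23.5 and 5.49 to 19.7 around the 14 and 11 found. The stretches of equal length on either side of each window were closer to the windows, with 9.08 regions per Mb in Calu3 (26 regions) and 4.54 in 16HBE14o- (13 regions), both inside the windows' intervals. Within counting error, the density at the windows was not distinguishable from that of their surroundings. The regions were spread unevenly, with 7 of the 14 Calu3 regions at TP63 and 5 of the 11 of 16HBE14o- at CEBPB. Intervals count regions as independent, although neighbouring regions need not be.

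**Figure D2:**
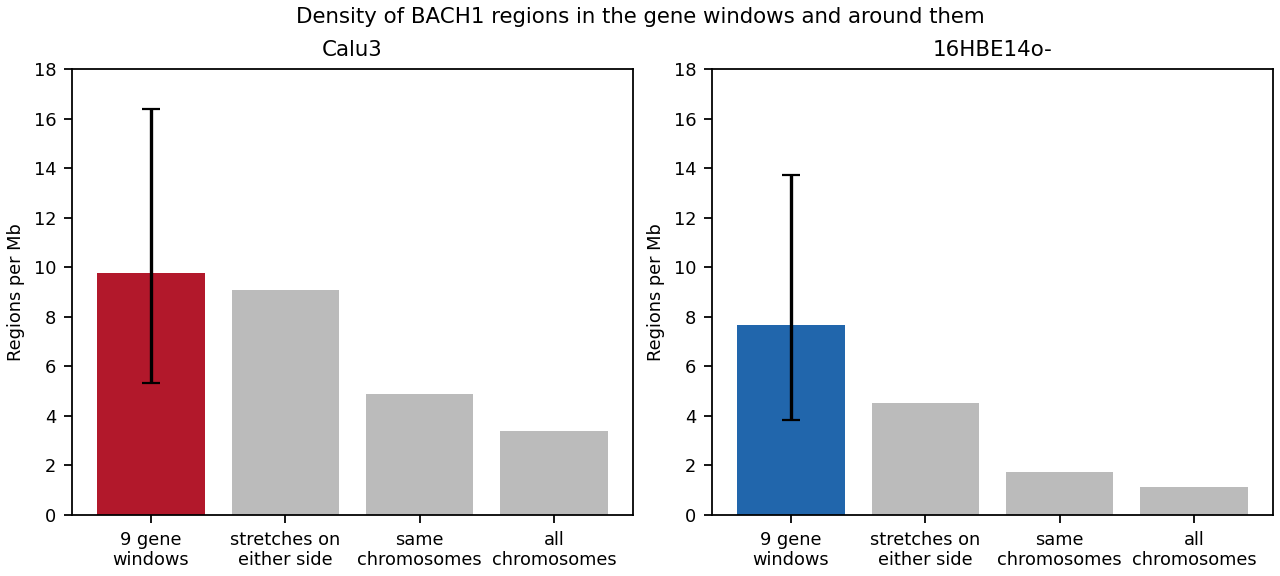
Bars give regions per Mb in the 9 gene windows (coloured, with 95% exact Poisson intervals that cover counting error only), in stretches of equal length on either side, at the densities of the same chromosomes and over all chromosomes, for Calu3 and 16HBE14o-. In both lines the grey bar of the adjoining stretches falls inside the interval of the coloured bar, while that of all chromosomes falls below it.

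The overlap of the lines at these genes came to 3 sites, 1 each at CEBPB, ELF3 and TP63. They are 3 of the 14 Calu3 regions (21.4%, 95% exact binomial interval 4.66 to 50.8), against 15.3% over the Calu3 list. They are 3 of the 11 regions of 16HBE14o- (27.3%, interval 6.02 to 61.0), against 46.5% over that list. With a reciprocal overlap of 50% only the TP63 site counted as shared (7.14% of the Calu3 and 9.09% of the 16HBE14o- regions), since the Calu3 regions at CEBPB and ELF3, 495 and 531 bp wide, are over 2 times as wide as their 240 bp counterparts. Counting summits up to 1000 bp apart as shared gave 35.7% in Calu3 and 36.4% in 16HBE14o-. This added a pair of regions near the CEBPB start. In Calu3 it also added a TP63 region 975 bp from the 16HBE14o- summit that already belongs to the shared TP63 site. Whole-list shares under these other rules were not computed, so these values have no background of their own. Under the 1 bp rule both whole-list shares, 15.3% and 46.5%, lie inside the intervals. The shares by that rule are thus not distinguishable from the lists' at this number. In the upper 25% of each list by signal, 3 of 4 Calu3 window regions and 2 of 3 of 16HBE14o- were shared, where 36.5% and 84.4% of all regions of that strength were. In each of the 3 windows the shared site was the strongest region of both lists.

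Fold enrichment and q in Calu3 and signal in 16HBE14o- are the authors' values for each peak, and rank 1 is the strongest region of a list. At CEBPB the shared site lay upstream of the gene, about 24.2 kb before its inferred start. The Calu3 region spanned chr20:48782522-48783016 with a fold enrichment of 13.8 and rank 521. In 16HBE14o- the region spanned chr20:48782684-48782923 with a signal of 107, on that list's own scale, and rank 107, the highest of any window region in that line. The summits were 13 bp apart. A second place of binding was near the gene start in both lines, but the regions did not overlap. The Calu3 region there, chr20:48807118-48807565, had a fold enrichment of 3.59 (rank 6396, q = 0.0034), and the 16HBE14o- region, chr20:48807700-48807939, had a signal of 35.2 (rank 1213). They were separated by 134 bp, with summits 435 bp apart.

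The 16HBE14o- list had 3 further regions at CEBPB, 21.8 to 30.8 kb from the nearest Calu3 summit. Their signals were 34.4 at 45.9 kb upstream, 32.6 at 31.2 kb past the gene start and 46.8 at 47.1 kb past it, with ranks 1263, 1421 and 674. The 5 regions of this line were 16.0 to 30.3 kb apart. Stretches of the same length with 5 or more 16HBE14o- regions made up 0.0784% of all (23 of 29352) and 1.80% of those on chromosome 20 (11 of 610). Calu3 had 2 regions at CEBPB, and 6.94% of all such stretches and 16.4% of those on chromosome 20 held 2 or more. The stretches of equal length directly below and above the window held 2 and 3 16HBE14o- regions, and 1 and 4 Calu3 regions. In the adjoining stretches a pair of sites was again bound in both lines, 28.9 kb below the window (rank 2362 in Calu3, 446 in 16HBE14o-) and 49.3 kb above it (rank 258 in Calu3, 355 in 16HBE14o-). The protein-coding neighbours of CEBPB in RefSeq are PEDS1 and PTPN1, and which gene any of these regions acts on was not tested.

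TP63 had 7 Calu3 regions and 2 of 16HBE14o-. The shared site lay 11.6 kb past the inferred gene end, towards P3H2, a prolyl hydroxylase gene. In Calu3 it spanned chr3:189627430-189627773 with a fold enrichment of 16.3 and rank 338, the strongest Calu3 region at any of the 9 genes. In 16HBE14o- it spanned chr3:189627444-189627683 with a signal of 28.4 and rank 1952, a little below the middle of its list. The summits were 41 bp apart. Ranks in lists of different length do not show that binding differed between the lines.

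The other TP63 regions were weaker in both lists. In 16HBE14o- the second region, chr3:189474541-189474780, lay inside the gene with a signal of 24.6 (rank 2589). In Calu3 a region 42.3 kb upstream of the gene had a fold enrichment of 5.96 (rank 2794). A region inside the gene, 157 kb past the inferred start, had 3.88 (rank 5685). Whether TP63 has a further start near this region was not assessed. The other 4 Calu3 regions were all past the gene end, with fold enrichments of 2.08 to 3.13. Among them, 1 had its summit 1016 bp from that of the shared site, and 3 had a deposited q of 0.126 to 0.307. Chromosome 3 is dense in the Calu3 list, at 7.03 regions per Mb against 1.01 in 16HBE14o-. Of stretches of 367 kb, 1.91% over all chromosomes but 8.74% on chromosome 3 held 7 or more Calu3 regions. Those directly below and above the TP63 window held 4 and 5 Calu3 regions, and 0 and 1 of 16HBE14o-.

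SOX2, on the same chromosome arm, had no region in its 103 kb window in either line. Of stretches of that length 24.1% held a Calu3 region and 8.83% a 16HBE14o- region. On chromosome 3 these shares were 40.4% and 7.25%. Just outside, 17.3 kb above the window in Calu3 and 17.2 kb above it in 16HBE14o-, lay a strong site bound in both lines. It spanned chr3:181500007-181500599 in Calu3, with a fold enrichment of 12.2 and rank 683, and chr3:181500120-181500359 in 16HBE14o-, with a signal of 65.2 and rank 371. The summits were 18 bp apart. The absence of SOX2 from the bound genes therefore depends on where the window ends.

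ELF3 had 2 Calu3 regions and 3 of 16HBE14o-. The shared site lay 11.4 kb past the inferred gene end in Calu3, on the side of GPR37L1. It spanned chr1:201998181-201998711 with a fold enrichment of 8.85 and rank 1361 in Calu3, and chr1:201998338-201998577 with a signal of 42.9 and rank 808 in 16HBE14o-, with summits 31 bp apart. The other 2 regions of 16HBE14o- flanked it at 6.13 and 5.66 kb, with signals of 32.6 and 28.7. All 3 regions of this line were thus past the gene end, and 0.605% of all stretches of 107 kb held 3 or more. The promoter of this gene, printed above, held no motif match. Near the inferred gene start only Calu3 had a region. It was weak, with a fold enrichment of 2.64, rank 9282 and q = 0.483.

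EHF and KLF5, the regulators of CFTR in this set, each had regions in 1 list only. EHF had 2 regions in Calu3 and none in 16HBE14o-. Of all stretches of 142 kb, 10.5% held 2 or more Calu3 regions and 11.5% held a 16HBE14o- region. The stronger, chr11:34706835-34707122, lay 22.0 kb past the inferred gene end with a fold enrichment of 8.17 and rank 1586. The weaker, chr11:34643509-34643715, was 0.595 kb from the inferred gene start, with a fold enrichment of 2.43, rank 9694 and q = 0.055. The nearest 16HBE14o- region to the EHF window was 866 kb away. KLF5 had no region in Calu3 and 1 in 16HBE14o-, chr13:73664667-73664906, which lay 12.8 kb past the inferred gene end with a signal of 24.8 and rank 2540. Of all stretches of 123 kb, 27.5% held a Calu3 region and 10.2% a 16HBE14o- region, so most were empty in each list. The nearest Calu3 region fell 4.62 kb outside the KLF5 window, with a fold enrichment of 4.11 and rank 5162. Chromosome 13 was sparse in the 16HBE14o- list, with 34 regions in all, and the next region of this line was 4199 kb from the window.

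GRHL2 had no region in its 277 kb window in either list. Of stretches of that length 46.5% held a Calu3 region and 19.2% a 16HBE14o- region. Regions of both lines lay below the window. A site 66.5 kb below it was bound in both, with a fold enrichment of 21.1 and rank 163 in Calu3 and a signal of 127 and rank 72 in 16HBE14o-. The 16HBE14o- list had 4 further regions in the stretch below, the nearest of them 4.17 kb from the window edge with a signal of 28.8.

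Of the forkhead genes, FOXA1 had 1 region in Calu3 and none in 16HBE14o-, and FOXA2 had none in either. The FOXA1 region, chr14:38065029-38065251, was 0.117 kb from the inferred gene start, with a fold enrichment of 5.21, rank 3496 and a −log10 q of 5.28. It was the strongest of the regions near a gene start in Calu3. A further Calu3 region lay 9.84 kb outside the FOXA1 window, with a fold enrichment of 7.54. The nearest 16HBE14o- region to FOXA1 was 543 kb from the window. For FOXA2 the nearest regions were 106 kb below the window in Calu3 (rank 6497) and 202 kb above it in 16HBE14o- (rank 1287).

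Among themselves the member regions ranged widely in strength. The Calu3 fold enrichments ran from 2.08 to 16.3 with a median of 3.74, against 4.13 over the list, and 2 of the 14 regions were in the top 10% of the list. In 16HBE14o- the signals ran from 24.6 to 107 with a median of 32.6, against 30.2 over the list, and 1 of the 11 was in the top 10%. The median within-list percentile was 41.0 in Calu3 and 58.1 in 16HBE14o-. In Calu3 5 of the 14 regions had a q of 0.05 or more (35.7%, 95% exact binomial interval 12.8 to 64.9), against 26.7% of the list. Of these 5, 3 were at TP63, 1 at the EHF start and 1 at the ELF3 start.

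By position, the 4 Calu3 regions within 2 kb of an inferred gene start had percentiles of 5.39 at EHF, 9.26 at ELF3, 37.5 at CEBPB and 65.9 at FOXA1, with a median of 23.4, and none was shared. The 10 regions further away held the 3 shared sites but ranged from 1.20 to 96.7, with a median of 58.6. Of these, the 7 past a gene end had a median of 23.5, close to that near the starts, while the 2 upstream regions were at 72.7 and 94.9 and the 1 inside a gene at 44.4. The strength of the Calu3 regions thus showed no clear order by position in so few regions, with 1 inferred start per gene. In 16HBE14o- the only region near a gene start, at CEBPB, was at percentile 64.3, against a median of 58.1 for the other 10. Of the 11 unshared Calu3 regions 3 had a 16HBE14o- summit within 10 kb, and of the 8 unshared regions of 16HBE14o- 3 had a Calu3 summit within 10 kb. Apart from the pair near the CEBPB start, these were neighbours of a shared site, at TP63 in Calu3 and at ELF3 in 16HBE14o-. The same share over all unshared regions of the lists was not computed, so whether these counts are high or low is unknown.

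**Figure D3:**
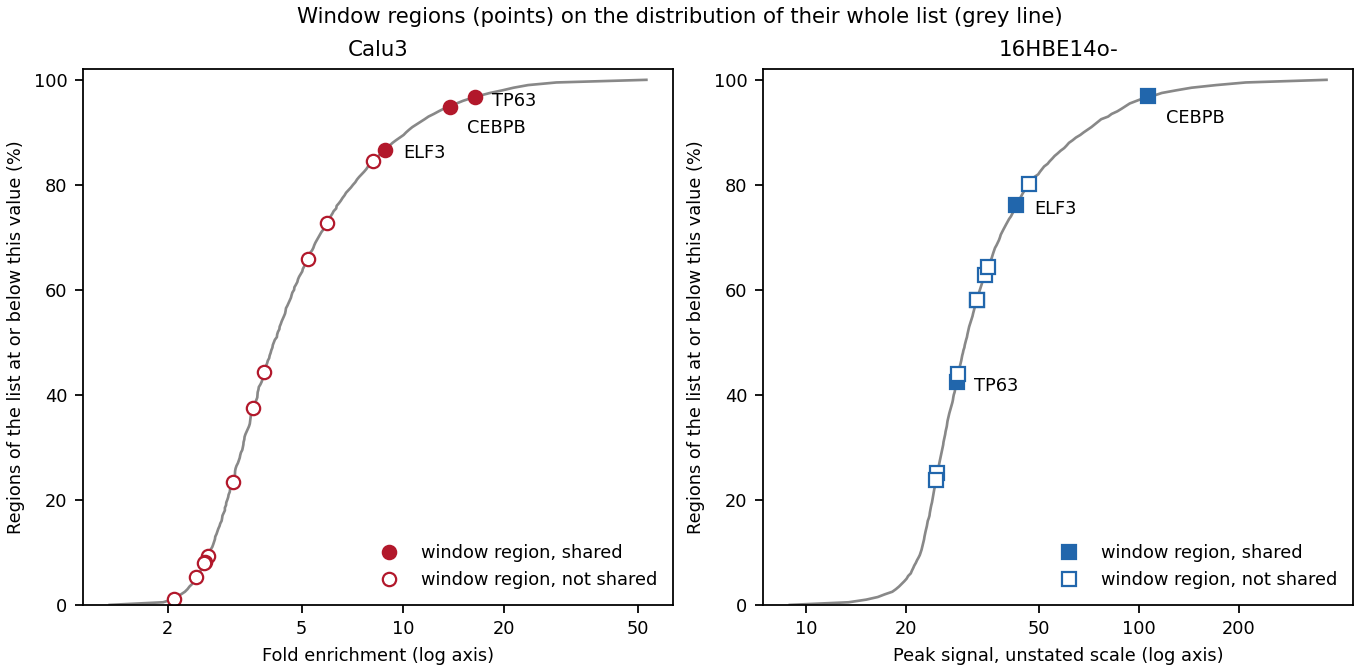
Points are the window regions on the cumulative distribution of their own list (grey line), with fold enrichment in Calu3 and peak signal on an unstated scale in 16HBE14o- on log x axes, and the percentage of the list at or below each value on the y axes. The shared sites, filled and named, are 3 of the 4 highest points in Calu3, while in 16HBE14o- the shared TP63 site lies below the middle of the list.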

How the data were processed

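The files are 1 peak list per cell line, each made by the authors from 2 replicates through the irreproducible discovery rate, per the labels. Positions are on hg19, according to the submitters' processing notes. How reads were aligned, filtered and called as peaks, and against which control, is not given in the sources used here. Read depth is unknown. Each Calu3 peak was deposited by the authors with a fold enrichment, a −log10 p, a −log10 q and a browser score; for 16HBE14o- they deposited a signal on an unstated scale and scores, one of which stands in the q column but falls below 0 and was not read as a q. Signals were therefore used only to rank regions within their own list.

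Overlapping rows were merged (3415 rows to 3393 regions in 16HBE14o-). Regions were shared when they overlapped by at least 1 bp. All 9 genes are named; regions are given in full when shared or strongest in their window, and the nearest outside region is given where a window is empty. Other regions described were chosen after their values were seen. The genes, windows and motif lists were chosen with earlier results of these data known. Stretches tile chromosomes 1 to 22 and X, up to the last region of either list. Intervals are exact Poisson or Clopper-Pearson and cover counting error only. Coordinates are 1-based. The scripts, in Python 3.11.15 with numpy 2.4.6, pandas 2.3.3 and scipy 1.17.1, were tested on simulated data. Alternatives changed the windows, the list length, the merging, the overlap rule and the ranking column.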

Additional observations from a re-analysis of the deposited data

How the results depend on the processing

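Of 71 values for 9 results under 11 alternatives, 58 stayed within 1.5 times the reported count or, for shares and medians, within the 95% interval, and 13 moved. Some of the 58 could not move. The q threshold for Calu3 and equal list sizes left the 16HBE14o- list as it was, so its counts and median percentile were fixed. Calu3 had no overlapping rows, so leaving rows unmerged could not change its counts or median percentile. With so few regions the limits are wide: the shares of 7.14% and 9.09% under reciprocal overlap, and 6 against 4 genes in 16HBE14o- in widened windows, stayed within them. Where a setting shortened a list, percentiles were ranked anew within it. The 16HBE14o- median percentile of 28.6 in the upper 50% of the list is therefore on another scale than 58.1. Its place within the limit says nothing about whether the strength of the regions held. The alternatives change how many regions enter, which bears on the counts, and which ones enter, which bears on the shares. Windows widened by 50 kb on each side held 27 regions in Calu3 and 19 in 16HBE14o-, with 5 genes bound in both lines. Windows narrowed by 40 kb held 5 and 3, none of them shared (0.0% in either line), since the shared sites lie away from the genes. Calu3 rows with q under 0.05 left 9 regions in Calu3. The upper 50% of each list left 6 in Calu3 and 7 in 16HBE14o-, where 2 genes kept a region. Equal list sizes left 5 in Calu3, of which 60.0% were shared. For the shares in this section no whole-list share under the same setting was computed. No paired analysis was possible because a list joins the replicates of its line, so no replicate block and no omission of a replicate could be run. Since depth is unknown, a region in 1 list only may lie below what the other could detect. The window regions of 16HBE14o- were all 240 bp wide, those of Calu3 170 to 565 bp, and the lists carry different scores. Whether peaks were called in the same way for both lines is unknown. This limits both the overlaps and the regions found in 1 list only.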
